A study of Mus musculus with 8 samples.

Results

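Macrophages are tissue phagocytes that engulf dying cells and pathogens, and their transcripts can be carried into a preparation of another cell type. The 8 genes described here are macrophage transcripts measured in libraries of natural killer (NK) cells: Csf1r, Mrc1, Vcam1, Slc40a1, Lyz2, C1qa, C1qb and C1qc. They were taken by symbol, and all 8 were found among the 27179 genes of the count table. All 8 also passed the filter on low counts, which kept 13184 genes. They passed it through the ex vivo libraries, where they were high.

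The 8 libraries were made from total RNA of C57BL/6 NK cells and form 4 groups of 2: CIS-/- cells in vitro, wild-type cells in vitro, CIS-/- cells ex vivo and wild-type cells ex vivo. CIS, encoded by Cish, is an intracellular inhibitor of cytokine signalling. All groups shared the strain, the source organs (spleen, bone marrow and blood) and an enrichment with microbeads against CD49b, the integrin bound by the DX5 antibody. No sex, age, culture medium, cytokine or culture time is stated, nor whether replicates came from separate mice, so p-values measure only the spread between these libraries, which may be technical.

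The members cover several macrophage functions. Csf1r is the receptor for colony-stimulating factor 1, on which most tissue macrophages depend for survival. Macrophages of the splenic red pulp take up ageing red cells and return their iron to the blood through ferroportin, the product of Slc40a1. Complement component C1q, which tags immune complexes and dying cells, is made largely by macrophages from the 3 chains that C1qa, C1qb and C1qc encode. Mrc1 encodes the mannose receptor CD206, which takes up glycoproteins. Vcam1 encodes an adhesion molecule of endothelium and stroma that splenic and marrow macrophages also carry. Lyz2 encodes lysozyme M, an antibacterial enzyme that monocytes and neutrophils make as well as macrophages.

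The libraries held between 21.5 and 28.1 M counts over genes, so that the 3 counts allowed by a reading of 0 correspond to between 0.104 and 0.138 CPM (counts per 1e6 scaled counts) in a library. Cish, the targeted gene, was at 21.2 and 17.2 CPM in CIS-/- cells in vitro against 219.8 and 201.9 CPM in wild-type cells in vitro, and at 1.29 and 2.64 CPM in CIS-/- cells ex vivo against 9.26 and 9.12 CPM in wild-type cells ex vivo. Sex-linked transcripts separated the genotypes within each state. Xist, which is made from the inactive X chromosome, was at 0.322 and 0.197 CPM in CIS-/- ex vivo libraries against 119.6 and 162.1 CPM in wild-type ex vivo libraries. The Y-linked Eif2s3y was at 84.9 and 70.4 CPM in CIS-/- ex vivo libraries against 34.1 and 21.7 CPM in wild-type ex vivo libraries, so that wild-type cells ex vivo carried the 2 transcripts together. In vitro the CIS-/- libraries held Xist and the wild-type libraries Eif2s3y. They also differed between the states of 1 genotype, with Xist at 130.7 and 89.7 CPM in CIS-/- cells in vitro against 0.322 and 0.197 CPM in CIS-/- cells ex vivo, and at 0 and 0.0351 CPM in wild-type cells in vitro against 119.6 and 162.1 CPM in wild-type cells ex vivo. Sex therefore cannot be told apart from genotype or from culture in any of the comparisons. The members lie on autosomes. The summed level of 13 NK cell markers was 55800 and 62000 CPM in CIS-/- cells in vitro, 35700 and 33200 CPM in wild-type cells in vitro, 32200 and 30700 CPM in CIS-/- cells ex vivo and 29000 and 29400 CPM in wild-type cells ex vivo. The granzyme genes Gzma (20300 and 25900 CPM) and Gzmb (24100 and 25000 CPM) made up most of it in CIS-/- cells in vitro. Of the 13 markers, 8 fell and 3 rose in culture in CIS-/- cells, and 9 fell and 3 rose in wild-type cells, by edgeR.

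The 3 C1q genes are neighbours on chromosome 4 of GRCm38. C1qb spans 136880126 to 136886200, C1qc 136889801 to 136892936 and C1qa 136895916 to 136898844. The other autosomal positions are 117277541 to 117282272 on chromosome 10 for Lyz2, 14229414 to 14332023 on chromosome 2 for Mrc1, 116110020 to 116129688 on chromosome 3 for Vcam1 and 45908070 to 45926532 on chromosome 1 for Slc40a1. The RefSeq promoter table (GRCm38.p6) held entries for 4 of the 8 members, Mrc1, Lyz2, C1qb and C1qc. The 250 bases upstream of the start are given here for Lyz2, whose level followed a course of its own among the ex vivo libraries, and for 1 surface receptor and 1 C1q chain. Capitals mark ACTTCCT, which is the motif AGGAAGT read on the other strand, a form of the site bound by ETS-family factors such as PU.1, the product of Spi1 and a regulator of myeloid cells. Each is written 5′ to 3′ on the strand of its gene.
Lyz2: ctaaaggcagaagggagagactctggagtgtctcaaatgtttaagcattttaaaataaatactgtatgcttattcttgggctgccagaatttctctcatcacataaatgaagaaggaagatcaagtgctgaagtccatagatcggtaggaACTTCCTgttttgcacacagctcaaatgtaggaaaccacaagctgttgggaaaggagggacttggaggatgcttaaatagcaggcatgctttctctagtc
Mrc1: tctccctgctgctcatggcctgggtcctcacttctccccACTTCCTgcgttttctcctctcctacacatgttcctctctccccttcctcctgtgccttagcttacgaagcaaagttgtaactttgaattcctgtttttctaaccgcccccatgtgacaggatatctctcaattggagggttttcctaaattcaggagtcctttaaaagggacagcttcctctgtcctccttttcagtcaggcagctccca
C1qb: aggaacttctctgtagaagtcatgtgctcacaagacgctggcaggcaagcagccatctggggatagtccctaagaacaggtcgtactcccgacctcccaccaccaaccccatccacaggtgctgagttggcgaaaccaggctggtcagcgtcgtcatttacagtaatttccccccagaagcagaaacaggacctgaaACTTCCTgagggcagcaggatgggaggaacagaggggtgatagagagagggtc
The windows are chr10:117282273-117282522 (minus strand) for Lyz2, chr2:14229164-14229413 (plus strand) for Mrc1 and chr4:136886201-136886450 (minus strand) for C1qb. As printed, the last base of the match lies 94 bases before the start in Lyz2, 205 in Mrc1, 47 in C1qb and 189 in C1qc, so that 4 of 4 windows held it on either strand. Of all 32851 promoter entries of this length, 2525 (7.69%) held it. The motif was chosen after these windows had been read, and a match is a description of the letters, not a measured site.

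Ex vivo all 8 transcripts were present at moderate levels, between 2.72 and 28.6 RPKM on average. RPKM, which is CPM divided by gene length in kilobases, allows levels to be compared between genes of different length. By mean RPKM in CIS-/- cells ex vivo (± SD, n = 2) the order was Slc40a1 (28.6 ± 12.8), C1qc (27.1 ± 8.48), C1qa (25.8 ± 9.94), Vcam1 (19.6 ± 6.8), Csf1r (14.5 ± 3.3), Lyz2 (10.5 ± 3.88), C1qb (8.02 ± 1.91) and Mrc1 (4.09 ± 1.08). In wild-type cells ex vivo it was Lyz2 (26 ± 5.89), C1qc (16.7 ± 6.03), C1qa (16.6 ± 5.14), Slc40a1 (16.4 ± 4.94), Vcam1 (12.4 ± 2.99), Csf1r (10.7 ± 3.75), C1qb (4.66 ± 1.59) and Mrc1 (2.72 ± 0.757). Neighbours in these orders differed by less than the larger of their SDs, except Csf1r and Lyz2 and C1qb and Mrc1 in CIS-/- cells, and Lyz2 and C1qc, Csf1r and C1qb, and C1qb and Mrc1 in wild-type cells. Lyz2 was sixth in CIS-/- cells and first in wild-type cells. C1qb was below its partner chains in all 4 ex vivo libraries, at 9.37 and 6.67 RPKM in CIS-/- cells and 5.78 and 3.53 RPKM in wild-type cells.

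These transcripts were almost absent from the cultured cells. Over all 8 genes, 6 reads were counted among 54.6 M in CIS-/- cells in vitro and 4 among 55.9 M in wild-type cells in vitro, against 14688 among 46.4 M in CIS-/- cells ex vivo and 10814 among 47.7 M in wild-type cells ex vivo. No member had more than 1 read in any in vitro library. In bulk RNA, fewer cells of a type and less RNA per cell cannot be told apart.

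**Figure D1:**
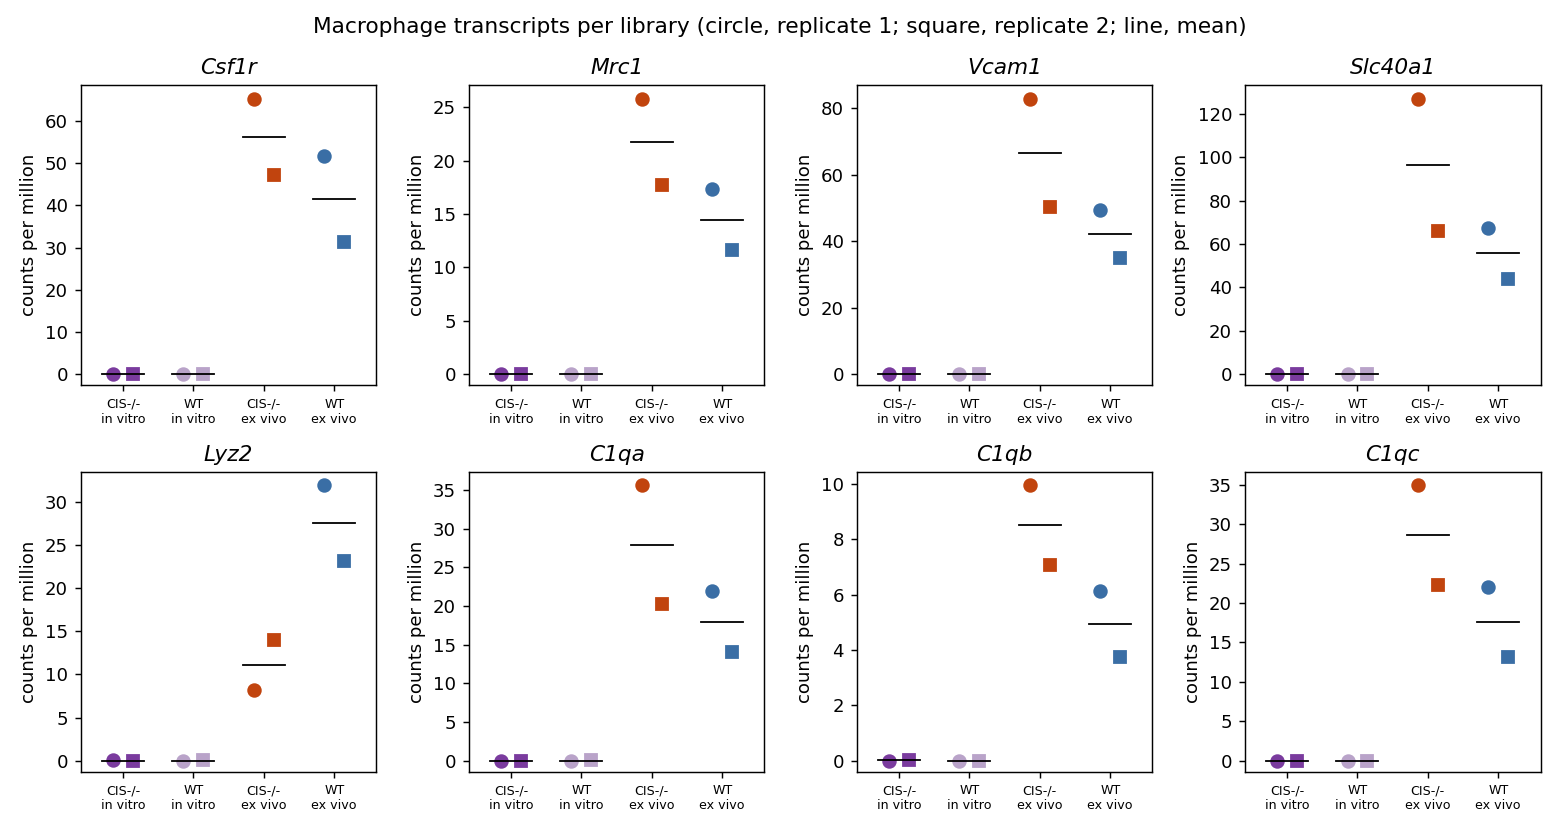
Level of each of the 8 macrophage transcripts, in CPM on a linear axis of its own from 0, in each library. Points are the 2 libraries of a group and lines their mean. In vitro every point is at or near 0. Ex vivo, 7 genes are highest in CIS-/- replicate 1 and lowest in wild-type replicate 2, and Lyz2 is higher in both wild-type libraries than in both CIS-/- libraries.

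The iron exporter Slc40a1 had 0 and 0 reads in CIS-/- cells in vitro against 2764 and 1678 reads in CIS-/- cells ex vivo, and 0 and 1 reads in wild-type cells in vitro against 1602 and 1109 reads in wild-type cells ex vivo. The ex vivo and in vitro libraries did not overlap. With 3 counts over the group as the floor, Slc40a1 was at least 1600-fold lower after culture in CIS-/- cells. In wild-type cells it was 3160-fold lower (95% counting interval 567 to 125000).

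The receptors followed. Csf1r had 1 and 0 reads in CIS-/- cells in vitro against 1417 and 1199 reads in CIS-/- cells ex vivo, which is 2830-fold lower (507 to 112000). In wild-type cells it had 1 and 0 reads in vitro against 1229 and 790 reads ex vivo, which is 2350-fold lower (422 to 93000). Exons of Csf1r overlap those of Hmgxb3 on the other strand, and 17.7% of the 50-base stretches of its longest transcript are shared with that gene. Hmgxb3 was at 36.3 and 27.1 CPM in CIS-/- cells in vitro and 37.5 and 39.5 CPM in wild-type cells in vitro, in the same libraries that held 0 or 1 read of Csf1r. Mrc1 had 1 and 0 reads in CIS-/- cells in vitro against 561 and 450 reads in CIS-/- cells ex vivo (1090-fold lower, 196 to 43200). In wild-type cells Mrc1 had 0 and 0 reads in vitro against 412 and 295 reads ex vivo, at least 275-fold lower.

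The adhesion molecule Vcam1 had 1 and 1 reads in CIS-/- cells in vitro against 1799 and 1275 reads in CIS-/- cells ex vivo, a ratio of 1660 (459 to 13700). In wild-type cells it had 0 and 0 reads in vitro against 1174 and 887 reads ex vivo, at least 801-fold lower. An antisense gene, Gm43109, overlaps its exons and shares 0.351% of its 50-base stretches. Vcam1 is also a gene of endothelium and stroma. Of 16 markers of those cells, 2 had enough counts to be tested and 3 (Emcn, Col3a1 and Pdgfra) had 0 reads in all 8 libraries, while Cdh5 did not exceed 0.0393 CPM in any. The tested ones were Pecam1, an adhesion molecule that leukocytes also carry, and Stab2, a scavenger receptor. Pecam1 was at 201 and 179 CPM in CIS-/- cells in vitro against 98.3 and 115 CPM in CIS-/- cells ex vivo, and at 177 and 191 CPM in wild-type cells in vitro against 110 and 118 CPM in wild-type cells ex vivo. Stab2 moved with Vcam1, at 0.231 and 0.16 CPM in CIS-/- cells in vitro against 3.91 and 2.4 CPM in CIS-/- cells ex vivo (edgeR adjusted p = 4.83e-05). In wild-type cells Stab2 was at 0.313 and 0.246 CPM in vitro against 2.52 and 2.21 CPM ex vivo (edgeR adjusted p = 0.000225). The part of such cells in the level of Vcam1 was not tested.

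The complement chains were as low. C1qc had 0 reads in all 4 in vitro libraries, against 758 and 566 reads in CIS-/- cells ex vivo and 524 and 331 reads in wild-type cells ex vivo. That places it at least 477-fold lower after culture in CIS-/- cells and at least 332-fold lower in wild-type cells. C1qa had 0 and 0 reads in CIS-/- cells in vitro against 772 and 517 reads in CIS-/- cells ex vivo (at least 464-fold lower). In wild-type cells C1qa had 0 and 1 reads in vitro against 521 and 356 reads ex vivo (1020-fold lower, 183 to 40400). All 3 chains were thus close to absent in culture, C1qb among them. It had 0 and 1 reads in CIS-/- cells in vitro against 216 and 180 reads in CIS-/- cells ex vivo (428-fold lower, 76.3 to 16900). In wild-type cells C1qb had 0 and 0 reads in vitro against 146 and 95 reads ex vivo, at least 93.6-fold lower.

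Lyz2 had 1 and 0 reads in CIS-/- cells in vitro against 179 and 357 reads in CIS-/- cells ex vivo (579-fold lower, 103 to 22900). In wild-type cells it had 0 and 1 reads in vitro against 758 and 585 reads ex vivo (1570-fold lower, 280 to 61900). Lyz2 and its neighbour Lyz1 are near copies, and 15.4% of the 50-base stretches of Lyz2 also occur in Lyz1. Lyz1 was itself low, with 0 reads in all 4 in vitro libraries, at most 0.865 CPM in CIS-/- cells ex vivo and at most 1.68 CPM in wild-type cells ex vivo.

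By edgeR's quasi-likelihood test with Benjamini-Hochberg adjustment over all 13184 genes, all 8 members fell in culture in both genotypes. The adjusted p-values ran between 1.23e-06 and 2.22e-05 in CIS-/- cells and between 2.03e-06 and 4.77e-05 in wild-type cells. Culture is a broad change: 37.5% of all tested genes were called lower in CIS-/- cells and 31.6% in wild-type cells. Of the tested genes, 528 (4%) had 10 or fewer reads over all 4 in vitro libraries, against 8 of 8 members. The members passed the low-count filter through the ex vivo libraries and were chosen with earlier results of these data known. Their fall was thus set beforehand, and these p-values and shares are a description, not a test of the set. The fitted log2 fold changes of genes with 0 or 1 read depend on the prior count and are not used as bounds.

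Other tissue macrophage genes were listed separately. Of 22 such genes 17 could be tested, and in culture 16 fell and 1 rose in CIS-/- cells, while 15 fell and 1 rose in wild-type cells. Of the 17, 12 had 10 or fewer reads over the in vitro libraries. Those 12 passed the low-count filter through the ex vivo libraries, so their direction was set beforehand and is a description only. Adgre1, which encodes the macrophage surface protein F4/80, was at 0 and 0.04 CPM in CIS-/- cells in vitro against 31.6 and 18.9 CPM in CIS-/- cells ex vivo, and at 0 and 0 CPM in wild-type cells in vitro against 19.6 and 10.9 CPM in wild-type cells ex vivo. Sirpa, the receptor for CD47, was likewise at 0 and 0 CPM in CIS-/- cells in vitro against 27.4 and 17.4 CPM in CIS-/- cells ex vivo. It was at 0 and 0.0351 CPM in wild-type cells in vitro against 22.1 and 13.1 CPM in wild-type cells ex vivo. Cd68, a lysosomal protein often used as a macrophage marker, was the gene that rose, to 27.1 and 25 CPM in CIS-/- cells in vitro against 14.5 and 12.1 CPM in CIS-/- cells ex vivo (log2 fold change 0.97, SE 0.165, edgeR adjusted p = 0.000763). In wild-type cells Cd68 was at 24.3 and 17.8 CPM in vitro against 12.5 and 11.9 CPM ex vivo (0.79, SE 0.166, edgeR adjusted p = 0.00329). Pld3, a lysosomal nuclease, fell by less, to 211 and 187 CPM in CIS-/- cells in vitro against 354 and 299 CPM in CIS-/- cells ex vivo (log2 fold change -0.71, edgeR adjusted p = 0.000711). Clec4f, a marker of liver macrophages, had 0 reads in every library.

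Genes of the wider macrophage programme that lymphocytes also use include members that rose and members that fell. Over all 13184 tested genes, 4945 fell and 4594 rose in culture in CIS-/- cells and 4166 fell and 4229 rose in wild-type cells, and the counts of these lists are to be read against those. Among 15 lysosome and protease genes, 9 fell and 4 rose in culture in CIS-/- cells, and 8 fell and 5 rose in wild-type cells. The protease gene Ctsd kept 1840 and 1870 CPM in CIS-/- cells in vitro against 3330 and 3110 CPM in CIS-/- cells ex vivo. Among 12 tested genes of iron and haem handling, 5 fell and 4 rose in CIS-/- cells, and 6 fell and 4 rose in wild-type cells. Tfrc, the transferrin receptor that brings iron into dividing cells, was at 358 and 390 CPM in CIS-/- cells in vitro against 5.11 and 7.32 CPM in CIS-/- cells ex vivo, the opposite course to the exporter Slc40a1. In wild-type cells Tfrc was at 231 and 255 CPM in vitro against 8.67 and 8.56 CPM ex vivo. Of 15 tested genes of complement and uptake of dying cells, 9 fell and 2 rose in CIS-/- cells, and 10 fell and 2 rose in wild-type cells. Of these 15, 5 had 10 or fewer reads over the in vitro libraries, so their direction was set by the filter. Itgam, the integrin CD11b that NK cells also carry, was at 110 and 91.1 CPM in CIS-/- cells in vitro against 942 and 1260 CPM in CIS-/- cells ex vivo.

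Among 12 myeloid transcription factors, 10 fell and 0 rose in culture in CIS-/- cells by edgeR, while 9 fell and 1 rose in wild-type cells. Of the 12, 3 had 10 or fewer reads over the in vitro libraries, so their direction was set by the filter. In the signalling axis of Csf1r, 7 of 9 genes could be tested, and 4 fell and 1 rose in each genotype. Of these 7, 2 had so few reads in vitro. The ligand gene Csf1 was at 0.0771 and 0.12 CPM in CIS-/- cells in vitro against 8.43 and 3.82 CPM in CIS-/- cells ex vivo. It was at 0.348 and 0.176 CPM in wild-type cells in vitro against 4.29 and 2.92 CPM in wild-type cells ex vivo.

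**Figure D2:**
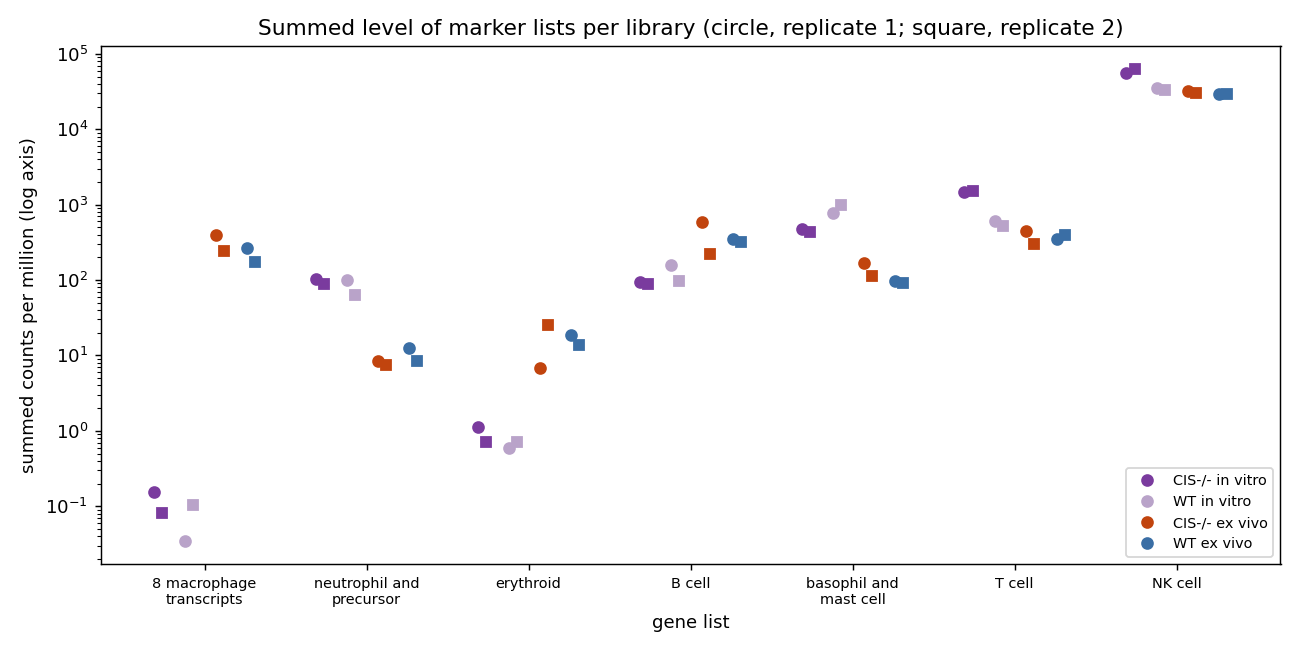
Summed CPM of 7 gene lists in each library, on a log axis. Points are libraries. The 8 macrophage transcripts sum to between 0.0348 and 0.154 CPM in vitro and between 176 and 390 CPM ex vivo, whereas the NK cell markers sum to between 29000 and 62000 CPM over all 8 libraries, in vitro mostly through Gzma and Gzmb.

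Markers of other cell types changed with culture as well, though unevenly. The summed B cell list was at 92.8 and 88.4 CPM in CIS-/- cells in vitro against 586 and 222 CPM in CIS-/- cells ex vivo, and at 156 and 96.8 CPM in wild-type cells in vitro against 345 and 321 CPM in wild-type cells ex vivo. The erythroid list was at 1.12 and 0.721 CPM in CIS-/- cells in vitro against 6.77 and 25.2 CPM ex vivo, and at 0.591 and 0.703 CPM in wild-type cells in vitro against 18.9 and 13.7 CPM ex vivo. The basophil and mast cell list was higher in vitro, at 473 and 437 CPM in CIS-/- cells against 167 and 113 CPM in CIS-/- cells ex vivo, and at 777 and 992 CPM in wild-type cells in vitro against 96.3 and 92.5 CPM in wild-type cells ex vivo. Most of its in vitro sum was the receptor gene Kit (421 and 363 CPM in CIS-/- cells in vitro). By gene, 6 of 9 tested fell and 3 rose in CIS-/- cells, and 4 fell and 3 rose in wild-type cells, by edgeR. Of the 9, 4 had 10 or fewer reads over the in vitro libraries, so their direction was set by the filter. The sum of the neutrophil list was also higher in vitro, at 102 and 87.5 CPM in CIS-/- cells in vitro against 8.38 and 7.55 CPM in CIS-/- cells ex vivo. In wild-type cells it was at 99.4 and 62.9 CPM in vitro against 12.6 and 8.53 CPM ex vivo. Nearly all of it in vitro was the protease gene Mmp9 (101 and 84.9 CPM in CIS-/- cells). By gene, 4 of 7 tested neutrophil genes fell and 2 rose in CIS-/- cells, and 5 fell and 1 rose in wild-type cells, by edgeR. Of the 7, 5 had 10 or fewer reads over the in vitro libraries. The part of these cell types in the members' levels was not tested.

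Ex vivo the members other than Lyz2 differed about as much between replicates as between genotypes. The summed level of all 8 was 389.9 and 244.8 CPM in CIS-/- cells against 267.9 and 175.6 CPM in wild-type cells, so that the genotypes overlapped. Without Lyz2 the sums were 381.7 and 230.7 CPM in CIS-/- cells against 236 and 152.5 CPM in wild-type cells. The mean of the 7 was 1.58 times as high in CIS-/- cells as in wild-type cells, while CIS-/- replicate 1 exceeded CIS-/- replicate 2 by 1.65 times and wild-type replicate 1 exceeded wild-type replicate 2 by 1.55 times. The difference between the genotypes was thus about as large as that between replicates.

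Slc40a1 was at 127 and 66 CPM in CIS-/- cells against 67.4 and 43.8 CPM in wild-type cells (log2 fold change 0.80, SE 0.313, edgeR adjusted p = 0.758). CIS-/- replicate 2 lay just below wild-type replicate 1. Vcam1 was at 82.9 and 50.2 CPM in CIS-/- cells against 49.4 and 35 CPM in wild-type cells (0.66, SE 0.245, edgeR adjusted p = 0.737). Both CIS-/- libraries were above both wild-type libraries, though CIS-/- replicate 2 and wild-type replicate 1 were nearly level.

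Csf1r was at 65.3 and 47.2 CPM in CIS-/- cells against 51.7 and 31.2 CPM in wild-type cells (0.44, SE 0.245, edgeR adjusted p = 0.766), and the groups overlapped. Mrc1 was at 25.8 and 17.7 CPM in CIS-/- cells against 17.3 and 11.6 CPM in wild-type cells (0.59, SE 0.259, edgeR adjusted p = 0.766). Its groups did not overlap, by the margin between 17.7 and 17.3 CPM.

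C1qa was at 35.6 and 20.3 CPM in CIS-/- cells against 21.9 and 14.1 CPM in wild-type cells (0.63, SE 0.305), C1qb at 9.95 and 7.08 CPM in CIS-/- cells against 6.14 and 3.75 CPM in wild-type cells (0.78, SE 0.324) and C1qc at 34.9 and 22.3 CPM in CIS-/- cells against 22 and 13.1 CPM in wild-type cells (0.70, SE 0.304). Each had an edgeR adjusted p of 0.766. The groups overlapped for C1qa and did not for C1qb and C1qc.

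Lyz2 took the opposite direction, at 8.24 and 14 CPM in CIS-/- cells against 31.9 and 23.1 CPM in wild-type cells (log2 fold change -1.30, SE 0.277, edgeR adjusted p = 0.388). Both CIS-/- libraries were below both wild-type libraries. CIS-/- replicate 1, which was the highest library for the other 7 genes, was the lowest for Lyz2.

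None of the 8 members passed the edgeR test of genotype ex vivo (0 of 8), in a comparison where 0.0607% of all tested genes did (8 of 13184). At an unadjusted p under 0.05 there were 4 of 8 members and 844 of all genes. The count of members rests on single libraries: it was 1 without CIS-/- replicate 1, 8 without CIS-/- replicate 2, 8 without wild-type replicate 1 and 1 without wild-type replicate 2. DESeq2 called Lyz2 (adjusted p = 0.00655) and no other member, and limma-voom called none. The log2 fold change was above 0 for 7 members and below 0 for 1, with a median of 0.64 against 0.02 over all genes. Groups did not overlap for 5 of the 8 members, against 40.3% of all tested genes. The replicates weighed on each value: without CIS-/- replicate 1 the log2 fold change of Slc40a1 was 0.25 and that of C1qa 0.18, and without CIS-/- replicate 2 they were 1.20 and 0.99. That of Csf1r was 0.85 without wild-type replicate 1 and 0.12 without wild-type replicate 2.

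**Figure D3:**
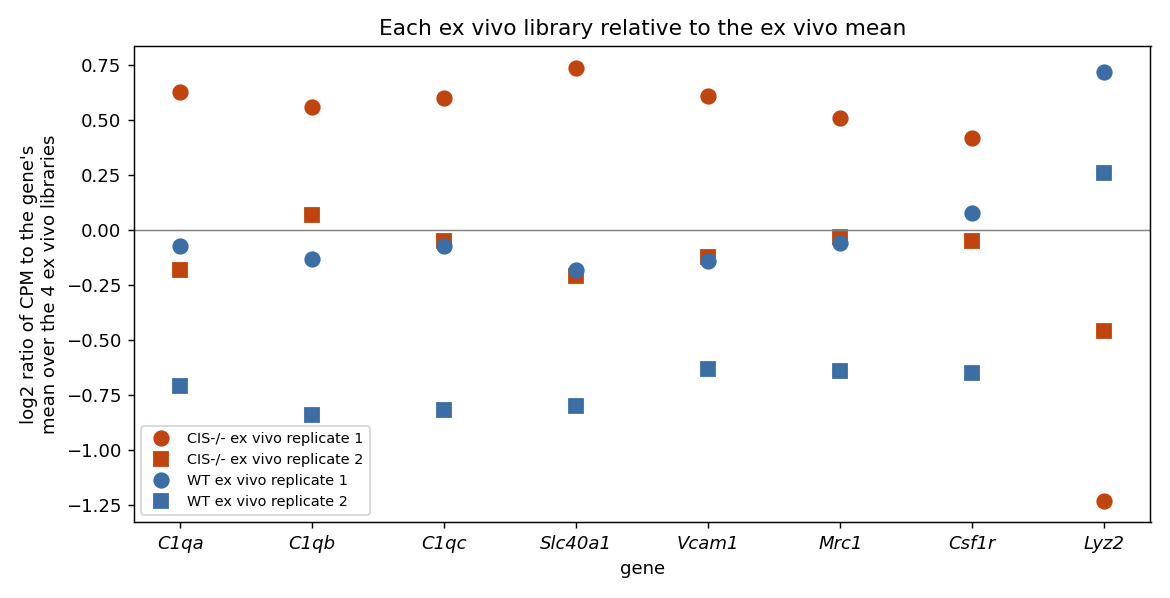
Log2 ratio of the CPM of each ex vivo library to the gene's mean over the 4 ex vivo libraries, by gene. For the 7 genes at the left, CIS-/- replicate 1 lies between 0.42 and 0.74 and wild-type replicate 2 between -0.84 and -0.63, with the other two libraries between. For Lyz2, CIS-/- replicate 1 is at -1.23 and wild-type replicate 1 at 0.72.

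The 7 genes other than Lyz2 kept similar proportions across the ex vivo libraries, though not all within counting error. Of their summed CPM, Slc40a1 made up between 28.6% and 33.4%, Vcam1 between 20.9% and 23%, Csf1r between 17.1% and 21.9%, C1qa between 8.82% and 9.32%, C1qc between 8.57% and 9.65%, Mrc1 between 6.77% and 7.67% and C1qb between 2.46% and 3.07%. No share varied by more than 1.28 times, while the sum itself ran between 152.5 and 381.7 CPM. All 7 were highest in CIS-/- replicate 1 and lowest in wild-type replicate 2, an order seen in 12.7% of all tested genes. For these 7 the ratio of CIS-/- replicate 2 to wild-type replicate 1 lay between 0.912 and 1.15. Of the reads of all 8 members, Slc40a1 made up 32.6% in CIS-/- replicate 1 (95% Wilson interval 31.7 to 33.7). In CIS-/- replicate 2 it made up 27% (25.9 to 28.1), a shift beyond counting error. Lyz2 changed its share by a larger factor. It made up 2.11% of the reads of all 8 members in CIS-/- replicate 1 (95% Wilson interval 1.83 to 2.44) and 5.74% in CIS-/- replicate 2 (5.19 to 6.34), against 11.9% in wild-type replicate 1 (11.1 to 12.7) and 13.2% in wild-type replicate 2 (12.2 to 14.2). These intervals cover counting error only.

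Most other tissue macrophage genes leaned the same way as the 7. Of 17 tested, 15 had a log2 fold change above 0 and 2 below, with a median of 0.49, and 12 of 17 were highest in CIS-/- replicate 1 and lowest in wild-type replicate 2. None passed the edgeR test. A few are named here after their values had been seen. Cd163, the haemoglobin scavenger receptor, was at 16.5 and 13 CPM in CIS-/- cells against 9.05 and 7.06 CPM in wild-type cells (log2 fold change 0.87, SE 0.2, edgeR adjusted p = 0.516). Cd5l, a secreted protein of tissue macrophages, was at 22.4 and 13.8 CPM in CIS-/- cells against 11.8 and 7.62 CPM in wild-type cells. Spic, a transcription factor of red pulp macrophages, was at 4.05 and 3.93 CPM in CIS-/- cells against 3.7 and 2.21 CPM in wild-type cells. In the separate list of iron and haem handling, 8 of 12 tested genes had a log2 fold change above 0 and 4 below, with a median of 0.10, and none passed the edgeR test. Hmox1 of that list, which opens the haem ring, was at 84 and 48.2 CPM in CIS-/- cells against 49.1 and 36.5 CPM in wild-type cells.

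**Figure D4:**
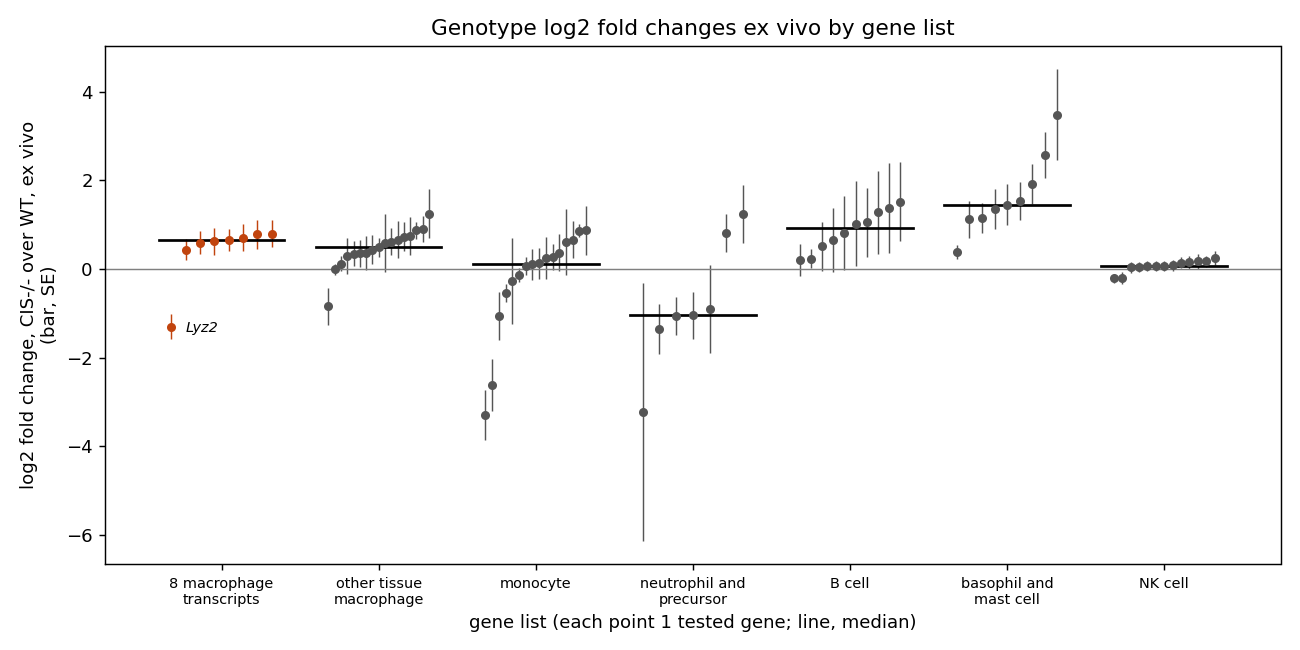
Log2 fold change of genotype ex vivo (CIS-/- over wild type) for each tested gene of 7 lists, with its SE as a bar and the list median as a line. The 8 macrophage transcripts have a median of 0.64 with Lyz2 below 0 at -1.30, and the other tissue macrophage genes a median of 0.49. The median is larger for B cell genes (0.92) and for basophil and mast cell genes (1.45). It is 0.12 for monocyte genes, -1.04 for neutrophil genes and 0.07 for NK cell genes.

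Monocyte and granulocyte genes that lay on the same side as Lyz2 were, again, picked after their values had been seen. Fn1, fibronectin, was at 0.276 and 1.18 CPM in CIS-/- cells against 5.64 and 3.59 CPM in wild-type cells (log2 fold change -2.62, SE 0.588, edgeR adjusted p = 0.485). Chil3, a chitinase-like protein of monocytes, was at 0.138 and 0.236 CPM in CIS-/- cells against 2.44 and 1.38 CPM in wild-type cells (-3.29, SE 0.558, edgeR adjusted p = 0.281). S100a8, a calcium-binding protein of neutrophils and monocytes, was at 1.01 and 1.06 CPM in CIS-/- cells against 2.78 and 1.58 CPM in wild-type cells. Over the whole lists, 5 of 7 tested neutrophil genes had a log2 fold change below 0 and 2 above (median -1.04). Of 16 monocyte genes, 6 were below 0 and 10 above (median 0.12). None passed the edgeR test in either list. Ly6c2 of the monocyte list, also picked after its values had been seen, lay on the other side. It was at 814 and 914 CPM in CIS-/- cells against 444 and 507 CPM in wild-type cells (0.86, SE 0.148, edgeR adjusted p = 0.176). The neutrophil list summed to 8.38 and 7.55 CPM in CIS-/- cells against 12.6 and 8.53 CPM in wild-type cells. Ly6g and Fcnb had 0 reads in all 4 ex vivo libraries. The part of these cells in the level of Lyz2 was not tested.

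Some other cell types also stood high in CIS-/- replicate 1, the library in which 5192 of all 13184 tested genes were highest. The B cell list summed to 586 and 222 CPM in CIS-/- cells against 345 and 321 CPM in wild-type cells, and 10 of its 10 genes were highest in CIS-/- replicate 1, although 0 of them were lowest in wild-type replicate 2. The basophil and mast cell list summed to 167 and 113 CPM in CIS-/- cells against 96.3 and 92.5 CPM in wild-type cells, with 9 of 9 tested genes highest in CIS-/- replicate 1. The median log2 fold change was 0.92 for the B cell list (10 of 10 above 0) and 1.45 for the basophil and mast cell list (9 of 9 above 0). In each, 0 genes passed the edgeR test. Of 11 T cell genes, 10 were highest in CIS-/- replicate 1. The erythroid list was lowest there, at 6.77 and 25.2 CPM in CIS-/- cells against 18.9 and 13.7 CPM in wild-type cells. The part of these cell types in the members' difference was not tested.

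In vitro the members could not be compared between genotypes, since no library held more than 1 read of any of them. Their counts summed to 4 and 2 reads in CIS-/- cells in vitro against 1 and 3 reads in wild-type cells in vitro, and no fold change is given. In the edgeR test of genotype in vitro 0 of 8 members passed, against 25.6% of all tested genes. At an unadjusted p under 0.05 there were 0 members and 5292 of 13184 genes. For the difference of the genotype effect between the states 0 of 8 members passed, against 0.137% of all genes, and at an unadjusted p under 0.05 there were 0 members and 2586 genes. Neither DESeq2 nor limma-voom called a member in these comparisons. Limma on the deposited log2 RPKM called Vcam1 in the comparison of genotype in vitro (adjusted p = 0.0142), which rests on 2 reads against 0.

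The genes whose levels over the 8 libraries were most like the mean course of the members were sought among 9415 genes with at least 5 CPM ex vivo, by Pearson's r of log2(CPM + 0.5). This measure is dominated by the gap between the states and ignores its size. The most alike were Mpeg1 (r = 0.9998), Sirpa (0.9996), Apoe (0.9992), Dcxr (0.9987), Rassf4 (0.9986), Atp11b (0.9986), Plbd1 (0.9985) and C1ql3 (0.9984). Mpeg1, a pore-forming protein of phagocytes, was at 0 and 0 CPM in CIS-/- cells in vitro, 0 and 0.0351 CPM in wild-type cells in vitro, 45 and 33.4 CPM in CIS-/- cells ex vivo and 33.3 and 20.6 CPM in wild-type cells ex vivo. Apoe, the lipid carrier, was at most 0.193 CPM in vitro, against 42.1 and 23.5 CPM in CIS-/- cells ex vivo and 30.9 and 20.7 CPM in wild-type cells ex vivo. Atp11b, a phospholipid flippase, had the same course in shape but not in size, at 179 and 181 CPM in CIS-/- cells in vitro against 511 and 488 CPM in CIS-/- cells ex vivo. Among the members themselves r with this mean was lowest for Lyz2 (0.968) and next for C1qb (0.9952). Each member is part of this mean and was low in vitro, so its high r was set beforehand and is a description only.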

How the data were processed

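The authors aligned reads with Subread to GRCm38/mm10, used featureCounts to count them per gene and limma to normalise, per the submitters' processing notes. Versions, strand setting and the treatment of shared reads are not given in the sources used here. The deposited count table holds raw counts for 27179 genes. The deposited log2 RPKM files, as the authors computed them, hold 12372 genes and served 1 alternative.

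The count analysis ran in edgeR 4.0.16 under R 4.3.3: filterByExpr by group (minimum count 10, minimum total 15), scaling by the trimmed mean of M values, 1 mean per group over all 8 libraries (4 residual degrees of freedom) and quasi-likelihood F tests, with Benjamini-Hochberg adjustment over 13184 genes and a threshold of 0.05. CPM use the scaled library totals, and RPKM also the deposited gene lengths. Standard errors are the log2 fold change over the root of F. Folds against 0 reads use a floor of 3 counts over the group, and with 1 to 3 counts an exact 95% counting interval of the ratio. Shared stretches were counted in GENCODE transcripts.

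The members, and the gene lists, were chosen with earlier results of these data known. All members were named in every comparison. For each list up to 4 genes past the threshold were eligible, by mean CPM, with genes at 0 counts and the 8 genes most like the members. Other genes named are said to be chosen after their values were seen, Hmgxb3, Gm43109, Lyz1, Cdh5, Hmox1, Ly6g and the sex-linked genes included. Alternatives were other scalings, filters, DESeq2 1.42.0, limma-voom (limma 3.58.1), a length correction, a replicate block, the compared samples alone, and leaving out each library. The fits were tested on simulated data. In every group the 2 replicates were further apart than counting error allows. Results for certain genes are not reported here.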

Additional observations from a re-analysis of the deposited data

How the results depend on the processing

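All 8 members stayed lower in vitro in both genotypes under each of the 18 alternatives, and ex vivo no member changed direction. Lyz2 passed ex vivo with DESeq2 (1 member called), with log2 fold changes between -1.74 and -0.97 over the alternatives and adjusted p-values between 0.00655 and 0.997. For the other 7 the lowest adjusted p was 0.108, for Slc40a1 without CIS-/- ex vivo replicate 2. Slc40a1 ranged between 0.25 and 1.20, and Csf1r between 0.12 and 0.85. In the genotype comparison in vitro, limma on the log2 RPKM values called 1 member, Vcam1, on 2 reads against 0. Counts of all genes moved more. Genotype ex vivo (8 genes) gave 23 without the low-count filter, 45 with DESeq2, 5 with the compared samples alone, 19 with the length trend removed, and 3 to 41 without 1 library (41 without CIS-/- ex vivo replicate 2, 3 without either wild-type ex vivo library). Genotype in vitro (3374) gave 500 to 4296 without 1 library: 500 without CIS-/- in vitro replicate 2, 868 and 1113 without wild-type in vitro replicates 1 and 2, and 1901 and 1879 without wild-type ex vivo replicates 1 and 2. The difference between states (18) gave 75 without the filter, 592 with DESeq2, 137 with the length trend removed, 1 with limma on log2 RPKM, 6 with the replicate block, and 6 to 378 without 1 library. The cause was not tested. Deviations of same-numbered replicates correlated at 0.166 between the ex vivo groups and at -0.333 between the CIS-/- groups. These values do not settle whether replicate numbers pair the libraries, ex vivo in particular. The replicate block changed no call of a member. Ex vivo it raised the members at an unadjusted p under 0.05 by edgeR from 4 to 8 of 8. With library totals alone the median of all genes moved to -0.17 for culture in CIS-/- cells, -0.13 for genotype in vitro and -0.15 for the difference between states. Where 1 library was left out, its partner was taken to vary as the other groups do. In vitro, depth limits what can be said to the 3 counts a library that a reading of 0 allows, or to the intervals given for 1 or 2 reads.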
